A study of Solanum lycopersicum with 10 samples.

Results

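The yellow flavonoids and purple anthocyanins of tomato were followed here at the transcript level through 8 genes chosen by identifier. These were the 5 regulators MYB12 (Solyc01g079620.4), ANT1 (Solyc10g086260.3), AN2 (Solyc10g086250.2), AN2-like (Solyc10g086290.3) and AN1 (Solyc09g065100.3), and the 3 late enzymes F3'5'H (Solyc11g066580.3), DFR (Solyc02g085020.4) and ANS (Solyc08g080040.4). All 8 were present among the 35288 genes of the deposited tables, and 6 of them passed the filter on low counts, while ANT1 and AN2-like did not. The samples were wild-type plants of cv. Ailsa Craig (AC), with no treatment or transgene named for any library. RNA-seq covered red ripe exocarp, mature green exocarp, red ripe mesocarp, mature green mesocarp and leaves, with 2 biological replicates per tissue and 10 libraries in all. The exocarp is the skin of the fruit, the mesocarp is the flesh beneath it, and the leaves had been pooled from plants at both fruit stages.

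Flavonoids are built by an early set of enzymes that starts with chalcone synthase and ends in flavonols or in dihydroflavonols. The late enzymes turn dihydroflavonols into anthocyanins: F3'5'H adds the hydroxyl groups of the blue-purple delphinidin type, DFR reduces the product, and ANS oxidizes it to the colored anthocyanidin. In the tomato family a MYB protein (ANT1, AN2 or AN2-like), the bHLH protein AN1 and a WD-repeat protein act together to switch on the late enzymes. MYB12 is a different MYB factor, which needs no bHLH partner and controls the early enzymes and the yellow naringenin chalcone of the fruit cuticle.

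The libraries held between 30945619 and 45637676 counts. Marker lists compiled by hand were checked against the tissue labels. All 5 skin markers, one of which the study had chosen on these libraries, were higher in exocarp than in mesocarp at both stages, and all 3 ripening markers were higher in red than in green tissue (edgeR). The same 3 ripening markers were lower in mature green exocarp than in mature green mesocarp (log2 fold changes of -8.62, -1.06 and -5.84), and 1 of them had 154 and 2628 counts in the mature green mesocarp libraries. The part of this difference in the comparisons of the mature green layers was not tested. The summed FPKM (read fragments scaled to gene length and library depth) of the 3 leaf markers was 32.7 to 1045 in fruit libraries, against 17134 and 17235 in leaves. The mature green exocarp replicates stood further apart than those of any other tissue. Among genes with at least 100 counts in the pair, 967 (5.73%) differed at least 2-fold between them, against 64 to 352 genes (0.411% to 2.27%) in the other tissues. All results for mature green exocarp are therefore given by library as well.

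MYB12 was the one regulator of the set with an exocarp-high pattern, and its level was highest in red ripe skin. It had 126 and 108 FPKM in the red ripe exocarp libraries and 30.7 and 17.9 FPKM in the mature green exocarp libraries. It had 1.40 and 1.499 FPKM in red ripe mesocarp, 2.52 and 2.91 FPKM in mature green mesocarp, and 5.80 and 5.07 FPKM in leaves. No exocarp library overlapped with any mesocarp or leaf library. In red ripe fruit the exocarp exceeded the mesocarp by 6.33 ± 0.27 (standard error) on the log2 scale (adjusted p = 1.55e-06, edgeR's quasi-likelihood test). At the mature green stage it was 3.27 ± 0.24 (adjusted p = 2.55e-05, edgeR). Of the 22801 genes tested, 37.4% differed between the layers at the red ripe stage (18.1% higher and 19.4% lower in exocarp) and 36.3% at the mature green stage (17.3% higher and 19.0% lower). In bulk tissue, fewer cells of a type and less RNA per cell cannot be told apart.

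The stages differed in the skin, while in the flesh the difference did not pass the threshold. MYB12 rose in red ripe over mature green exocarp with a log2 fold change of 2.59 ± 0.21 (adjusted p = 1.06e-05, edgeR), in a comparison in which 61.9% of all genes were called and 29.7% were called higher. In red ripe over mature green mesocarp the change was -0.48 ± 0.28 (adjusted p = 0.176, edgeR), where 60.1% of all genes were called, 28.2% higher and 31.8% lower. Scaling by total counts in place of TMM turned this last difference into a call (-0.87, adjusted p = 0.0305). The difference between the layers was itself larger in red ripe fruit by 3.06 ± 0.35 on the log2 scale (adjusted p = 0.000661, edgeR), a test that 21.3% of all genes passed, 10.9% in this direction and 10.5% in the other. With any single library left out, this value stayed between 2.75 and 3.47. The mature green exocarp replicates differed by 1.71-fold (95% counting interval 1.58 to 1.86). This was well below the 4.80-fold gap between the mean FPKM of red and green exocarp. Neither of these ratios carries TMM scaling, unlike the log2 fold change of 2.59.

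Leaves lay between skin and flesh. MYB12 was higher in red ripe exocarp than in leaves (4.43 ± 0.24, adjusted p = 5.09e-07, edgeR), where 75.9% of all genes were called and 35.7% were called higher. The mature green exocarp was also above leaves (1.84 ± 0.22, adjusted p = 9.82e-05, edgeR), with 71.0% of all genes called, 34.6% higher and 36.4% lower. Red ripe mesocarp lay below leaves (-1.91 ± 0.26, adjusted p = 0.000181, edgeR), with 76.6% of all genes called and 35.0% called higher. So did mature green mesocarp (-1.43 ± 0.25, adjusted p = 0.000999, edgeR), with 68.5% called and 32.7% called higher. The order of levels was thus red ripe exocarp, mature green exocarp, leaf, mature green mesocarp and red ripe mesocarp, and of these neighbors only the mesocarp stages were not called different by edgeR, although their libraries did not overlap in FPKM. All these comparisons with leaves share the same 2 leaf libraries.

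**Figure D1:**
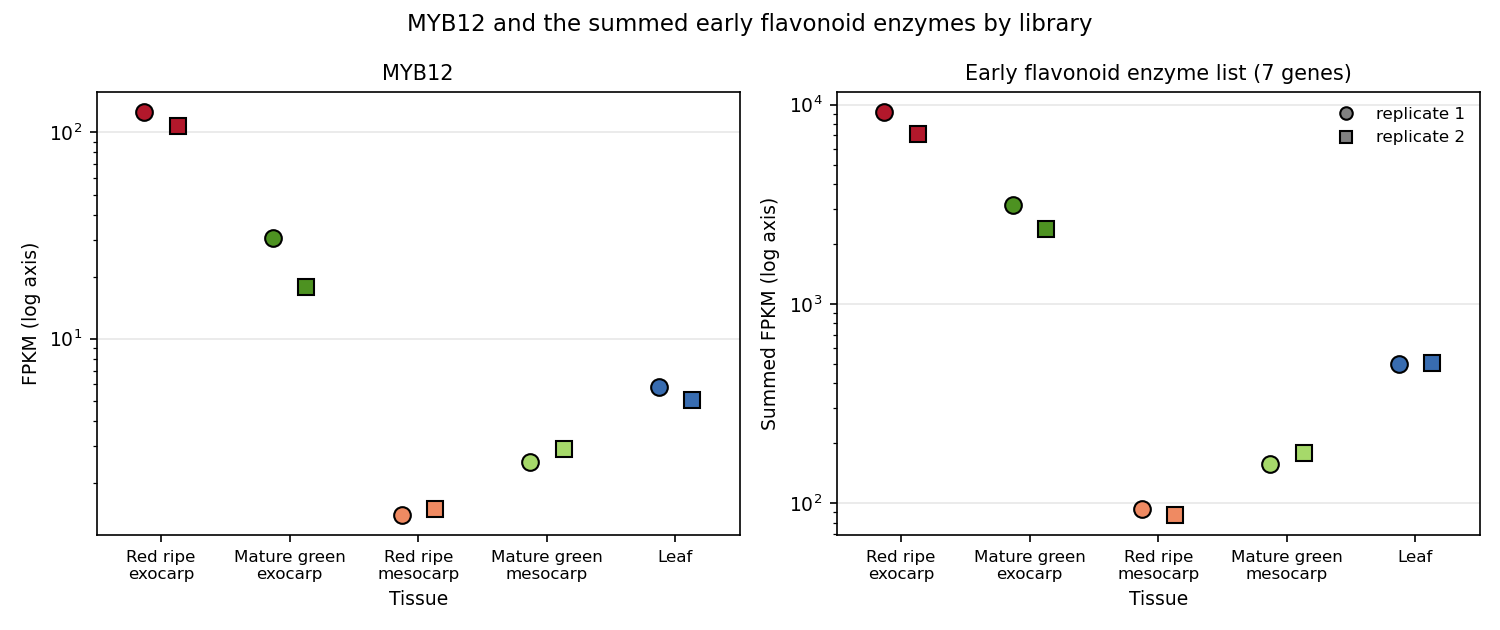
FPKM of MYB12 (left) and summed FPKM of a list of 7 early flavonoid enzymes (right) in each library, on log axes. Circles are replicate 1 and squares replicate 2. MYB12 reached 126 and 108 FPKM in red ripe exocarp and at most 2.91 FPKM in any mesocarp library, and the summed enzymes followed the same order of tissues.

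The early enzymes followed the same order of tissues in their summed level, though not gene by gene. A list of 7 identifiers for chalcone synthase, chalcone isomerase, F3H, F3'H and flavonol synthase was compiled by hand, since the tables hold no names. Their summed level was 9158 and 7151 FPKM in red ripe exocarp, 3147 and 2379 FPKM in mature green exocarp, 93.6 and 87.5 FPKM in red ripe mesocarp, 158 and 178 FPKM in mature green mesocarp, and 497 and 503 FPKM in leaves. Each exocarp library exceeded every mesocarp and leaf library in this sum. Of the 7 genes, 6 were higher in exocarp than in mesocarp at each stage (18.1% of all genes at the red ripe and 17.3% at the mature green stage). In red ripe over mature green exocarp 6 were higher, against 29.7% of all genes (edgeR). Mature green exocarp was above leaves for 5 of the 7 and below for 1, against 34.6% and 36.4% of all genes. Red ripe mesocarp was above mature green mesocarp for 1 and below it for 3, against 28.2% and 31.8% of all genes. The median log2 fold change over the list was 6.46 between the red ripe layers and 4.26 between the mature green layers, against a median of 0 over all genes tested in both comparisons. Across the 10 libraries, the Pearson correlation of log2(CPM + 1) between MYB12 and the 7 genes ranged from -0.27 to 0.98 with a median of 0.96, which describes 5 tissues rather than 10 independent points. The exception was Solyc05g010320, singled out after its values were seen, with counts near 0 in red ripe exocarp and its highest level in leaves.

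Among all 18796 genes compared, Solyc03g033330.3 had the pattern most like that of MYB12 (Pearson r of 0.99 over 10 libraries), followed by Solyc12g011160.2 (r of 0.99), which ranked 8 with FPKM in place of CPM (r of 0.98). Their levels were lower than the summed enzymes. Solyc03g033330.3 had 58.3 and 40.9 FPKM in red ripe exocarp, 31.2 and 18.3 FPKM in mature green exocarp and 3.07 to 8.90 FPKM elsewhere. Solyc12g011160.2 had 119 and 105 FPKM in red ripe exocarp, 72.7 and 68.7 FPKM in mature green exocarp and 12.4 to 23.4 FPKM elsewhere.

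The 3 anthocyanin MYB genes, whose identifiers lie close together on chromosome 10, were almost silent in the fruit. ANT1, a regulator that can turn tomato tissue purple when overexpressed, had 0 counts in all 10 libraries. At these depths 3 counts, the limit that a count of 0 allows, correspond to 0.0692 to 0.101 CPM (counts scaled to library size after TMM adjustment). AN2-like, the gene behind the purple skin of introgressed anthocyanin tomatoes, had 3 and 0 counts in red ripe exocarp, 12 and 0 counts in mature green exocarp, 0 and 2 counts in mature green mesocarp, and no count in red ripe mesocarp or leaves. Only the library of mature green exocarp replicate 1 exceeded the limit of 3 counts for AN2-like.

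AN2 was a leaf gene in these libraries. It had 0 and 0 counts in red ripe exocarp, 78 and 0 counts in mature green exocarp, 7 and 0 counts in red ripe mesocarp, 4 and 4 counts in mature green mesocarp, and 1485 and 1541 counts in leaves. The leaf level of 47.4 and 51.7 FPKM exceeded every fruit library, of which mature green exocarp replicate 1 was the highest at 2.25 FPKM. AN2 was at least 577-fold lower in red ripe exocarp than in leaves, taking 3 counts as the floor in each skin library (adjusted p = 0.000344, edgeR). It was also lower than in leaves for mature green exocarp and for the red ripe and mature green mesocarp, with log2 fold changes of -5.77 ± 0.98, -9.00 ± 1.30 and -8.83 ± 1.28 (adjusted p = 0.00122, 0.000420 and 0.000538, edgeR). Without mature green exocarp replicate 1 or 2 the first of these was -13.79 or -4.77, and without red ripe mesocarp replicate 1 or 2 the next was -13.80 or -8.15, all of them called. The values of -13.79 and -13.80 rest on 0 counts in the remaining library and give no bound. How reads that fit several of these related MYB genes were counted is not given in the sources used here, so their low counts are uncertain.

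AN1, DFR and F3'5'H shared a pattern. They had at most 2 counts in any red ripe library, low counts in mature green mesocarp and higher counts in leaves, and in mature green exocarp they were high in replicate 1 and had at most 4 counts in replicate 2. DFR had 0 and 0 counts in red ripe exocarp, 619 and 4 counts in mature green exocarp, 0 and 0 counts in red ripe mesocarp, 89 and 74 counts in mature green mesocarp, and 371 and 283 counts in leaves. F3'5'H had 0 and 0 counts in red ripe exocarp, 381 and 0 counts in mature green exocarp, 0 and 0 counts in red ripe mesocarp, 30 and 47 counts in mature green mesocarp, and 118 and 138 counts in leaves. For both enzymes, replicate 1 of mature green exocarp was the highest of the 10 libraries, while replicate 2 lay below both mature green mesocarp libraries.

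AN1, the bHLH partner, repeated this pattern at a lower level. It had 0 and 2 counts in red ripe exocarp, 61 and 2 counts in mature green exocarp, 0 and 0 counts in red ripe mesocarp, 7 and 20 counts in mature green mesocarp, and 84 and 106 counts in leaves. In FPKM, the mature green exocarp libraries had 0.708 and 0.0233 and the leaves 1.09 and 1.44. AN1 was thus the one gene of this group whose leaf libraries both exceeded mature green exocarp replicate 1.

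ANS differed from DFR and F3'5'H in being detected everywhere. It had 61 and 95 counts in red ripe exocarp, 462 and 25 counts in mature green exocarp, 50 and 56 counts in red ripe mesocarp, 84 and 55 counts in mature green mesocarp, and 262 and 214 counts in leaves. Its FPKM was 7.69 and 0.413 in mature green exocarp, 4.81 and 4.11 in leaves and 0.678 to 1.70 in the other 6 libraries. Mature green exocarp therefore held both the highest and the lowest ANS level of the series.

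**Figure D2:**
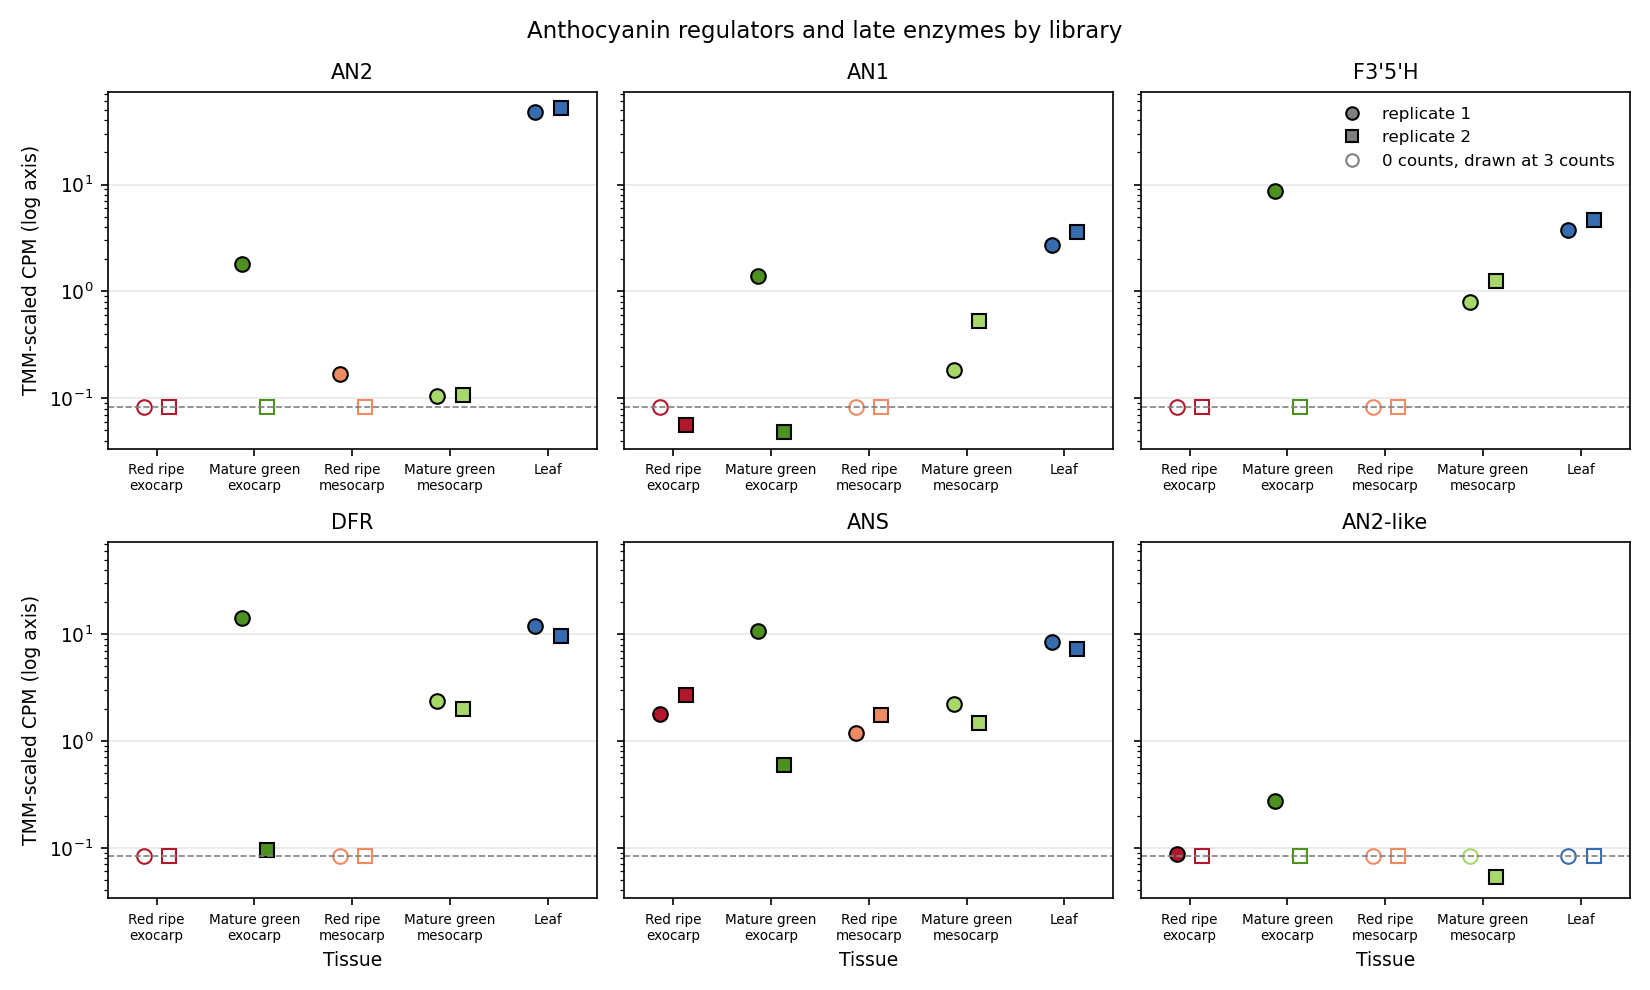
TMM-scaled CPM, on a log axis, of AN2, AN1, F3'5'H, DFR, ANS and AN2-like in each library. Circles are replicate 1, squares replicate 2, and open symbols mark 0 counts drawn at the level of 3 counts (dashed line). Mature green exocarp replicate 1 lies above replicate 2 in every panel, while the 2 leaf libraries lie close together wherever the gene was detected.

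The gap between the mature green exocarp replicates was unusual for these libraries. Replicate 1 over replicate 2, per library total, was 154-fold for DFR (95% counting interval 60.0 to 568), 30.4-fold for AN1 (8.07 to 257) and 18.4-fold for ANS (12.3 to 28.8). For F3'5'H it was at least 127-fold and for AN2 at least 25.9-fold, with 3 counts in place of 0. Of the 16868 genes with at least 100 counts in this pair, 26 (0.154%) were at least 10-fold higher in replicate 1, and DFR, F3'5'H and ANS were among them. In the other direction, 47 genes were at least 10-fold higher in replicate 2. In leaves, by contrast, the replicate ratio of the 5 detected anthocyanin genes lay between 0.758 and 1.25. These ratios compare 2 libraries and not conditions, and the intervals cover counting error only.

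In mature green exocarp, MYB12 (30.7 and 17.9 FPKM) and each of the 7 early enzymes (3147 and 2379 FPKM in sum) were also higher in replicate 1, with smaller gaps. Total counts and marker sums of these libraries differed far less than the anthocyanin genes did. Total counts were 38373229 and 38261394. The summed skin markers were 10635 and 10536 FPKM, or 3113 and 2329 FPKM without the marker chosen on these libraries, and none was at 0. The summed leaf markers were 1045 and 800.1 FPKM, with all 3 detected in both libraries, which is 6.08% and 4.66% of the leaf mean. The marker with the widest gap, Solyc02g085950, had 45.0 and 13.8 FPKM, against 5826 and 4828 FPKM in leaves. In replicate 1, DFR, F3'5'H and ANS levels were 168%, 264% and 173% of the leaf mean in FPKM, while AN2 was at 4.54% and AN1 at 56.1% of it. FPKM carries no TMM scaling. In TMM-scaled CPM, DFR, F3'5'H and ANS were nearer to leaves, at 14.3, 8.78 and 10.7 against leaf means of 10.7, 4.22 and 7.81. Whether these differences in leaf markers, 1.31-fold in the sum, had a part in the replicate gap was not tested.

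**Figure D3:**
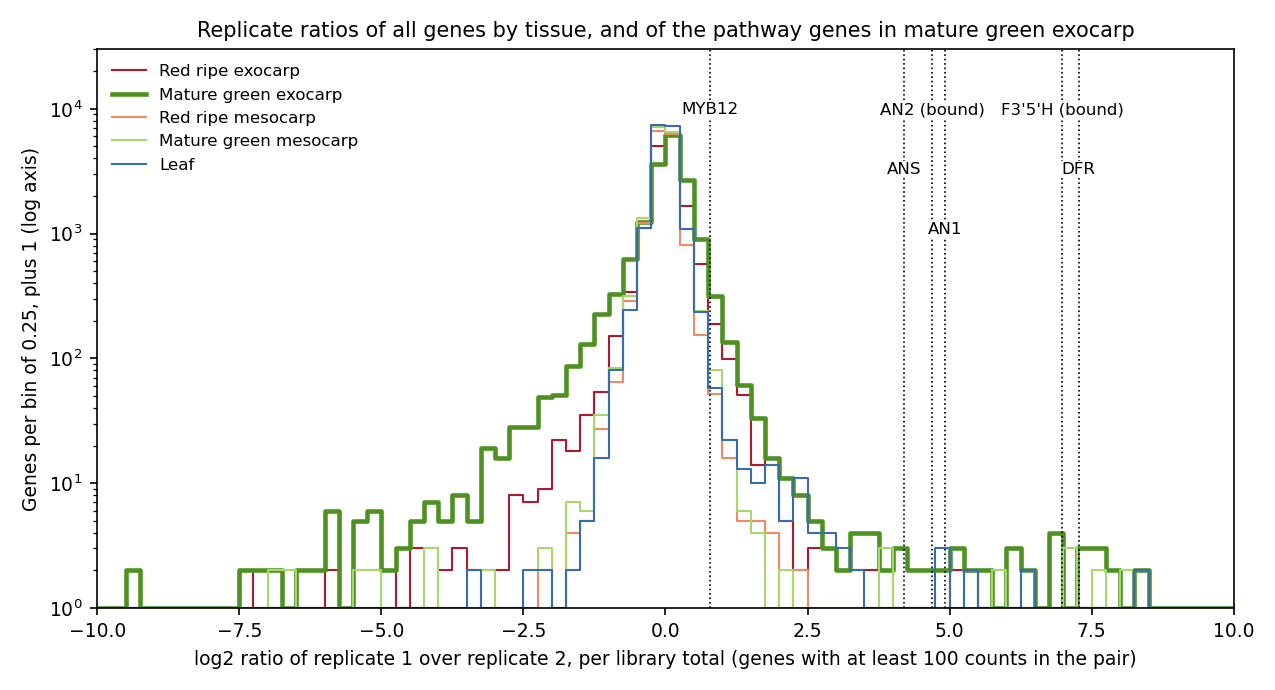
Number of genes (plus 1, log axis) by log2 ratio of replicate 1 over replicate 2, scaled by library totals, for genes with at least 100 counts in the pair, one line per tissue. Dotted lines mark 6 of the genes in mature green exocarp (AN1 and AN2 have under 100 counts in the pair). MYB12 lies at 1.71-fold, a ratio reached by 562 of the 16868 genes in this pair. ANS, AN1, AN2, F3'5'H and DFR lie from 18.4-fold to 154-fold.

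With both mature green exocarp libraries in the fit, none of the 5 anthocyanin genes tested was called different from mature green mesocarp (edgeR). MYB12 was the 1 of the 6 tested genes called, where 36.3% of all genes were called and 17.3% were called higher. The exocarp stood above the mesocarp on the log2 scale by 3.05 ± 1.56 for AN2, 1.02 ± 1.20 for AN1, 2.10 ± 1.64 for F3'5'H, 1.73 ± 1.44 for DFR and 1.61 ± 0.96 for ANS (adjusted p from 0.174 to 0.565, and no unadjusted p under 0.05). Without replicate 2, AN2, F3'5'H, DFR and ANS were called higher in exocarp, by 4.04, 3.10, 2.72 and 2.53. Without replicate 1, F3'5'H, DFR and ANS were called lower, at -8.20, -4.45 and -1.62, so the direction for these 3 enzymes turned with the library that was used. In these fits the lone library is assumed to vary like those of the other tissues.

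Against leaves the outcome was split in the same way. With both libraries, AN2 was the one anthocyanin gene called, lower in mature green exocarp, and the log2 fold changes of the others were -2.10 ± 1.13 for AN1, 0.06 ± 1.53 for F3'5'H, -0.58 ± 1.36 for DFR and -0.47 ± 0.91 for ANS (adjusted p from 0.133 to 0.984, edgeR). With replicate 1 alone, F3'5'H was called higher than in leaves (1.08), while DFR (0.43) and ANS (0.47) were not called. With replicate 2 alone, AN2, AN1, F3'5'H, DFR and ANS were all called lower. MYB12 was called higher than in mesocarp and than in leaves with either library.

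**Figure D4:**
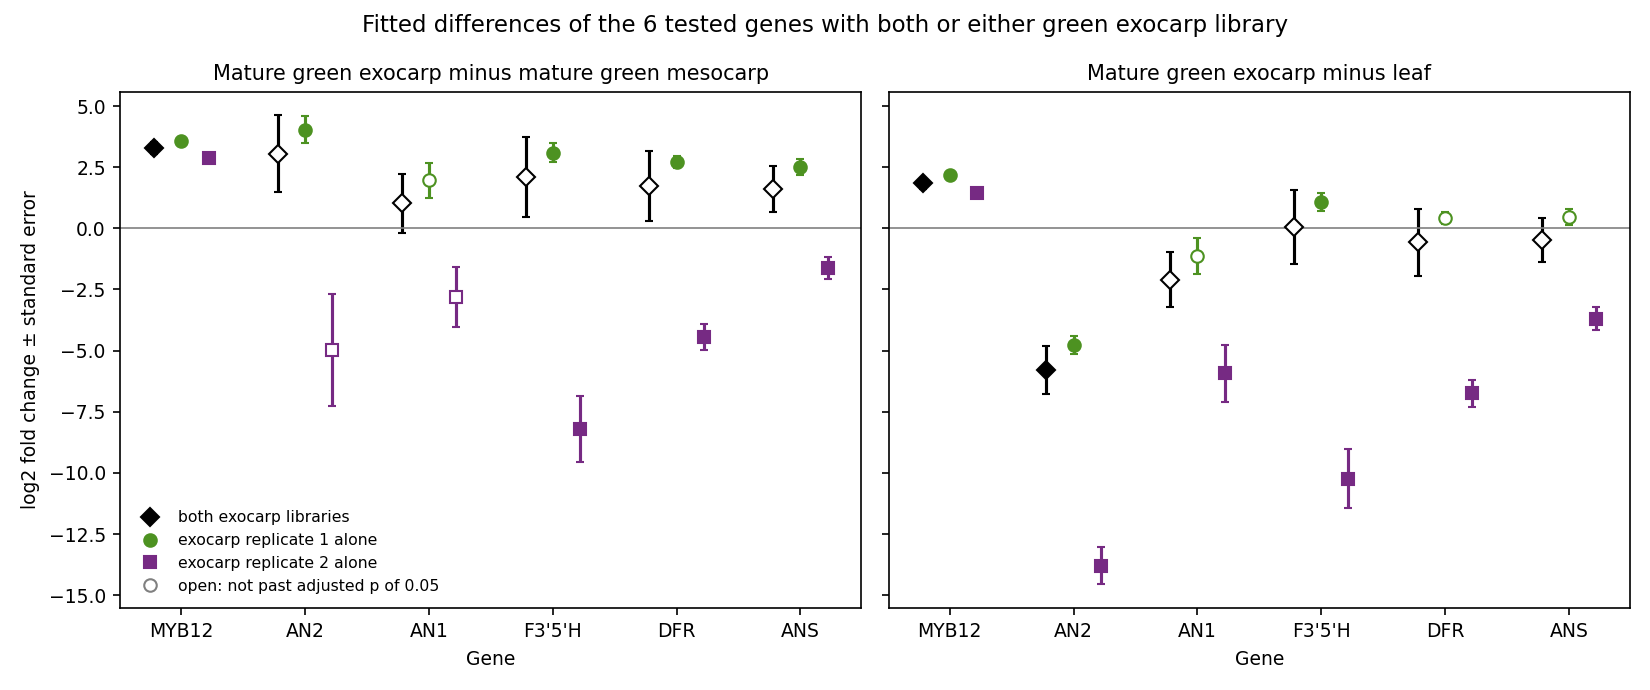
Log2 fold changes ± standard error (edgeR) of mature green exocarp over mature green mesocarp (left) and over leaf (right) for 6 genes, with both exocarp libraries (diamonds), replicate 1 alone (circles) or replicate 2 alone (squares); open symbols did not pass an adjusted p of 0.05. MYB12 stays above 0 throughout, while the left-hand values of the other 5 genes change sign between the 2 libraries; fitted values for AN2 and F3'5'H with replicate 2 alone rest on 0 counts and give no bound.

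In red ripe fruit the anthocyanin genes were low in both layers. F3'5'H and DFR had no count in any of the 4 red ripe libraries, so no fold change is given between the red ripe layers. AN1 had 2 counts in all in these libraries. ANS did not differ detectably between the red ripe layers (0.62 ± 0.99, adjusted p = 0.686, edgeR), and neither did AN2, which had counts in just 1 of the 4 libraries. MYB12 was again the 1 of 6 tested genes called between the layers, where 37.4% of all genes were called and 18.1% were called higher.

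Against leaves, 4 of the 6 tested genes were called lower in red ripe exocarp (AN2, AN1, F3'5'H and DFR), in a comparison in which 40.2% of all genes were called lower. F3'5'H was at least 48.9-fold lower (adjusted p = 0.0336), DFR at least 124-fold lower (adjusted p = 0.0164) and AN1 at least 36.3-fold lower (adjusted p = 0.00758, edgeR). In red ripe mesocarp 5 of the 6 were called lower, MYB12 besides the same 4 genes, with 41.6% of all genes called lower. There F3'5'H was at least 51.2-fold lower (adjusted p = 0.0321), DFR at least 130.2-fold lower (adjusted p = 0.0156) and AN1 at least 38.04-fold lower (adjusted p = 0.00459, edgeR). Leaving out either library of the red tissue concerned ended the F3'5'H and DFR calls (adjusted p from 0.0578 to 0.110). Leaving out either leaf library ended the F3'5'H calls alone (adjusted p from 0.0647 to 0.0753). ANS lay below leaves, at -1.80 ± 0.96 for red ripe exocarp and -2.42 ± 0.99 for red ripe mesocarp, which did not pass (adjusted p = 0.116 and 0.0509, edgeR). DESeq2 called ANS lower in both (adjusted p = 0.0486 and 0.00959), as did edgeR on the compared tissues alone (adjusted p = 0.000955 and 3.90e-06). In edgeR, DESeq2 size factors or no filter called it lower in red ripe mesocarp only (adjusted p = 0.0423 and 0.0468). No other alternative called either difference.

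Mature green mesocarp kept a low but repeated signal. DFR had 1.43 and 1.18 FPKM, F3'5'H 0.389 and 0.621 FPKM, AN1 0.101 and 0.279 FPKM and ANS 1.70 and 1.11 FPKM there. Against leaves, 2 of the 6 tested genes were called lower in mature green mesocarp (MYB12 and AN2), with 35.8% of all genes called lower. DFR lay at -2.31 ± 1.46 and F3'5'H at -2.04 ± 1.64 against leaves, neither past the threshold (adjusted p = 0.202 and 0.307, edgeR). These standard errors come from the model of all 10 libraries, whose spread per gene includes the mature green exocarp pair. A fit of the mature green mesocarp and leaf libraries alone called all 6 genes lower in mesocarp. There DFR lay at -2.28 ± 0.20 and F3'5'H at -2.01 ± 0.30 (adjusted p = 3.08e-06 and 0.000190, edgeR).

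Between the stages, F3'5'H and DFR were called lower in red ripe than in mature green exocarp (at least 50.9-fold and 83.2-fold, adjusted p = 0.0395 and 0.0269, edgeR), as 2 of 6 tested genes where 32.2% of all genes were called lower. Both folds are of tissue means. The lower mature green exocarp library over the higher floor of 3 counts gave 0 for F3'5'H and 1.08 for DFR. The folds thus rest on mature green exocarp replicate 1. Without that library, F3'5'H had no count on either side, DFR was still called on 4 counts against 0 (adjusted p = 0.0281), and ANS was called higher in red ripe exocarp (1.90, adjusted p = 0.00594) where it had been at -1.33 ± 0.95. Without either red ripe exocarp library both calls were lost (adjusted p from 0.0862 to 0.119). In a fit of the exocarp libraries alone, neither gene passed the filter on low counts, so neither was tested. In the mesocarp none of the 6 tested genes was called between the stages, where 60.1% of all genes were called and 31.8% were called lower (AN1 and DFR had unadjusted p of 0.0364 and 0.0436, edgeR, and DESeq2 called both lower). The spread in this model includes the mature green exocarp pair. A fit of the mesocarp libraries alone called F3'5'H and DFR lower in red ripe mesocarp (adjusted p = 7.12e-05 and 3.23e-06, edgeR). The red ripe mesocarp counts of DFR were 0 and 0 against 89 and 74 counts in mature green mesocarp, at least 26.2-fold lower.

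The other genes of the pathway, taken from hand-compiled lists, split along the same line. Of 6 identifiers for the glycosylation, acylation and transport of anthocyanins, 4 had counts in mature green exocarp replicate 1 and at most 2 counts in replicate 2. Their summed level was 0 and 0 FPKM in red ripe exocarp, 27.9 and 0.0214 FPKM in mature green exocarp, 0 and 0.0479 FPKM in red ripe mesocarp, 4.80 and 3.82 FPKM in mature green mesocarp, and 17.2 and 17.01 FPKM in leaves. This is the pattern of DFR and F3'5'H. All 4 are counted among the 26 genes at least 10-fold higher in replicate 1, which follows from how they were picked. The other 2 identifiers summed to 379 and 269 FPKM in red ripe exocarp, 368 and 188 FPKM in mature green exocarp, 2.61 and 3.94 FPKM in red ripe mesocarp, 19.0 and 16.2 FPKM in mature green mesocarp, and 131 and 130 FPKM in leaves. They were called higher in exocarp than in mesocarp at both stages, as MYB12 was, and as 18.1% (red ripe) and 17.3% (mature green) of all genes were. The split of the list was made after its values were seen.

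The 5 other listed regulators include a WD-repeat protein, another bHLH partner and a MYB repressor. None of the 3 with at least 100 counts in the mature green exocarp pair was 10-fold higher in replicate 1, and Solyc07g052490 had 27 and 9 counts there. Their summed level was 54.8 and 57.1 FPKM in mature green exocarp, within the range of 41.7 to 73.6 FPKM over the other 8 libraries. The sum hides differences between the genes. Between the mature green layers 2 of the 5 were called higher in exocarp, as were 17.3% of all genes (edgeR). In red ripe over mature green exocarp 1 was called higher and 1 lower, against 29.7% and 32.2% of all genes (edgeR). Solyc10g086270.2, numbered next to ANT1 and singled out after its values were seen, had 44 and 25 counts in leaves and 0 in every fruit library.

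Between the genes, levels per length kept closer proportions for some pairs than for others. The FPKM ratio of F3'5'H to DFR was 0.506 in mature green exocarp replicate 1, 0.271 and 0.524 in mature green mesocarp, and 0.261 and 0.400 in leaves. The ratio of ANS to DFR was 0.945 in mature green exocarp replicate 1 and 0.894 to 1.18 in mature green mesocarp and leaves, but 7.90 in mature green exocarp replicate 2, where DFR had 4 counts. The ratio of AN1 to DFR was 0.0870 in mature green exocarp replicate 1 and ranged from 0.0701 to 0.334 in mature green mesocarp and leaves. The ratio of AN2 to AN1 was 3.18 in mature green exocarp replicate 1, 1.41 and 0.408 in mature green mesocarp, and 43.6 and 35.9 in leaves. Over the 10 libraries, DFR and F3'5'H had a Pearson correlation of 0.99 in log2(CPM + 0.1), and 0.99 without mature green exocarp replicate 1. MYB12 had correlations between -0.20 and 0.13 with the 5 anthocyanin genes. These correlations describe 5 tissues with 2 libraries each and share many counts of 0.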

How the data were processed

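The authors had poly(A) RNA of the 10 libraries sequenced and deposited a table of read counts per gene and a table of FPKM values. The submitters' processing notes list HISAT2 as the aligner. The counting program, genome build and annotation are not given in the sources used here, nor is the handling of reads that fit several genes. The deposited counts are raw whole numbers per gene, and the deposited FPKM values are counts scaled by the authors to gene length and library size. Counts were tested, and FPKM was used for levels compared between genes. All per-sample columns were used.

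The 8 genes were taken by identifier, and all are named. The genes, pathway lists and markers were chosen with earlier results of these data known. The tables hold no gene names, and 6 of the 8 names matched a symbol or synonym in a RefSeq table (SLM_r2.1), each on the chromosome its identifier gives. AN1 and AN2-like were not matched. No sequences or coordinates are printed. The 2 genes most like MYB12 were those with the highest Pearson correlation of log2(TMM CPM + 1).

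The count tests used edgeR 4.0.16 (R 4.3.3) with TMM scaling and filterByExpr by tissue, which kept 22801 of 35288 genes. A single model held all 10 libraries with a coefficient per tissue and 5 residual degrees of freedom, and 9 contrasts were tested by glmQLFTest (2-sided). The spread of a gene was estimated over all tissues together, so a replicate gap in any tissue enters the standard error of every contrast. P-values were adjusted by Benjamini-Hochberg over all genes tested and called under 0.05. Where libraries were at 0 or at most 3 counts, a lower bound on the fold was computed with 3 counts per library. Between tissues this is the mean CPM of the other tissue over the mean CPM of 3 counts, and single libraries can lie below it. Replicate ratios carry exact 95% binomial intervals, which cover counting error only. Library totals of 30945619 to 45637676 counts put 3 counts at 0.0692 to 0.101 CPM. Alternatives were DESeq2 1.42.0, DESeq2 size factors or total counts in edgeR, no filter, the compared tissues alone, a replicate block, an adjusted p under 0.01, and leaving out each library. The scripts were tested on simulated data. The series' design text repeats green exocarp and leaves out green mesocarp, and groups were taken from each sample's own labels.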

Additional observations from a re-analysis of the deposited data

Results flagged for a closer look

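The difference between exocarp and mesocarp in MYB12 was not the same at the 2 stages. Red ripe exocarp over red ripe mesocarp gave a log2 fold change of 6.33, and mature green exocarp over mature green mesocarp gave 3.27. The test of the difference itself gave 3.06 ± 0.35 on the log2 scale (adjusted p = 0.000661, edgeR's quasi-likelihood test), with an adjusted p between 9.12e-16 and 0.00625 over the alternatives. Groups of 2 libraries are too small for a test of single outlying libraries.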

How the results depend on the processing

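MYB12 kept its direction and its side of the threshold in 102 of 103 alternatives, the exception being red ripe against mature green mesocarp, which total-count scaling called (-0.87). Of the 6 genes tested, the 2 called lower in red ripe than in mature green exocarp became 4 with DESeq2, with total counts or with no filter, 0 with an adjusted p under 0.01, and 1 with the replicate block. With the compared tissues alone the count was 0 of 2 tested, because F3'5'H and DFR did not pass that filter. For red ripe against mature green mesocarp the 0 genes called lower became 2 with DESeq2 (AN1 and DFR), with total counts (MYB12 and AN1) and with the compared tissues alone (F3'5'H and DFR, of 4 tested). For mature green mesocarp against leaf the 2 genes called lower, MYB12 among them, became 4 with DESeq2 and 6 with the compared tissues alone. Against leaf, an adjusted p under 0.01 left 2 called lower for red ripe exocarp and 3 for red ripe mesocarp, and 5435, 5168 and 2390 of all genes for the red ripe layers, the mature green layers and the difference between the stages. F3'5'H in mature green exocarp against leaf turned to -0.062 with DESeq2, -0.059 with its size factors in edgeR, -0.028 with the compared tissues alone and -0.60 with the replicate block. Replicates of the same number did not deviate together over all genes (correlations of -0.04 to 0.10 over 10 pairs of tissues). This cannot show whether same-numbered libraries came from the same fruits, which the labels do not state.

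Leaving out 1 library at a time gave these ranges. Genes called between the mature green layers ran from 5360 to 8781, and for the difference between the stages from 3067 to 6158. Of the 6 genes tested, those called higher ran from 1 to 5 between the mature green layers, and from 1 to 2 for red ripe against mature green exocarp, for mature green exocarp against leaf and for the difference between the stages. Those called lower ran from 0 to 3 between the mature green layers, 0 to 5 for red ripe against mature green exocarp, 2 to 3 for red ripe exocarp against leaf, 3 to 4 for red ripe mesocarp against leaf, 1 to 5 for mature green exocarp against leaf and 0 to 2 for the difference between the stages. For red ripe against mature green exocarp, the 0 called lower came from leaving out either red ripe exocarp library and the 5 from leaving out mature green exocarp replicate 2. The 5360 genes came from leaving out mature green mesocarp replicate 1. In log2 fold changes, mature green exocarp over mature green mesocarp ran from -4.97 to 4.04 for AN2, -2.82 to 1.96 for AN1, -8.20 to 3.10 for F3'5'H, -4.45 to 2.72 for DFR and -1.62 to 2.53 for ANS. Over leaf it ran from -10.23 to 1.08 for F3'5'H, -6.75 to 0.43 for DFR and -3.70 to 0.47 for ANS. ANS ran from -2.24 to 1.90 for red ripe over mature green exocarp, and the difference between the stages ran from -8.86 to 0.17 for AN2 and -1.91 to 2.24 for ANS. Red ripe over mature green mesocarp ran from -4.98 to 0.66 for AN2 and -0.60 to 0.0081 for ANS.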
